A study of Homo sapiens with 18 samples.

Results

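Flag-only regions present in both conditions were stretches of the genome where an anti-Flag peak was called in control and in miR-130a knockdown cells while no anti-ETO peak of either condition touched them. To find them, the peaks of the 4 single-antibody lists (anti-ETO and anti-Flag, control and knockdown) were merged wherever they shared at least 1 bp. A merged region was kept when it held a Flag peak of each condition and no ETO peak. The rule gave 1343 regions out of 35622 merged regions, or 3.77%. The regions were thus chosen by measured peak calls. Those calls, and every measure built from the same peaks (the distance to an ETO peak, the lengths of the Flag peaks), are given below as descriptions without a test.

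The study used Kasumi-1, an established acute myeloid leukaemia line with the t(8;21) translocation, in which the fusion protein AML1-ETO carries a Flag tag. All groups shared this tagged line, a viral transduction and a sort for viable GFP+ cells at day 3; 1 arm was the control and the other was labelled miR-130a KD. CUT&RUN was run with anti-ETO, anti-Flag or mouse IgG on 3 libraries per antibody and condition, 18 libraries in all, from fragments of 150 to 400 bp read as 75-bp pairs. The labels do not say what drives the tagged protein, whether the line is 1 clone, which vector the control cells received, or whether libraries numbered alike came from separate cultures.

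CUT&RUN sends a nuclease to the antibody on its chromatin target, so that short DNA fragments around the bound protein are released and sequenced. AML1-ETO joins the DNA-binding Runt domain of RUNX1 to most of ETO (RUNX1T1), a corepressor that recruits complexes with histone deacetylases. An anti-ETO antibody can bind the tagged and the untagged fusion, other proteins that keep the epitope, or ETO itself, whereas an anti-Flag antibody is directed at the tag. RUNX proteins recognise a short DNA core, TGTGGT, at promoters and at distal elements.

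Each antibody and condition came as 1 list of positions with no score and no library of origin. Counts and shares of regions therefore carry only the counting error of these lists; regions are not replicates of a condition, and no spread between libraries can be given. The IgG libraries were not analysed here, and the part that background cleavage has in these calls was not tested. The depth behind each call is unknown; the labels give a planned depth of about 40 M reads per library.

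Few of these regions lay on a gene start, and the sequences shown are from those that did. RefSeq promoter windows (GRCh38.p14, 250 bases before to 50 after a gene start) overlapped 22 of the 1205 regions on the 22 chromosomes that the table used covers, at 23 separate loci. The 3 stretches below are the ones in which the RUNX core, in capitals on either strand, lay inside both the promoter window and the Flag-only region. Each is 30 bases long, written 5′ to 3′ on the strand of the named gene.

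AMPD2 (AMP deaminase, chr1:109619735-109619764, plus strand): gccctaccgcggTGTGGTggctgcccacgt

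LTA (lymphotoxin alpha, chr6:31572107-31572136, plus strand): gaacccccagccTGTGGTtctctcctaggc

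LOC100287036 (chr16:89320232-89320261, plus strand): gctgcacagccgACCACAcaacagaaggca

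The AMPD2 match began 90 bases before the gene start, in a region spanning chr1:109619569-109619986 that also reached the divergent gene GNAT2. The LTA match lay in a region spanning chr6:31571571-31572499, where the control Flag peak measured 493 bp and the knockdown Flag peak 882 bp. The LOC100287036 region spanned chr16:89320103-89320634, with a longer control Flag peak (527 bp) than knockdown Flag peak (217 bp). One more stretch is shown because it is the promoter sequence inside a Flag-only region of CBFA2T3, the gene of an ETO family corepressor described below. It holds the part of the LOC105371409 window that the region covered, and its capitals mark the CpG dinucleotides.

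LOC105371409 (chr16:88925168-88925339, plus strand): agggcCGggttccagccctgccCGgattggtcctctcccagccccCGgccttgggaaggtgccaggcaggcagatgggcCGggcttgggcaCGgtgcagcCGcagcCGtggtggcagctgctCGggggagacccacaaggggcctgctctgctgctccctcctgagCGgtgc

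Of these 172 bases, 72.7% were G or C and 9 positions were CpG. The stretch holds no RUNX core on either strand and lay 16060 bp from the nearest CBFA2T3 start in the table.

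Flag peaks without ETO peaks were the smaller share of the Flag sites that both conditions had. Among 12870 merged regions with a Flag peak in control and in knockdown, 8835 (68.6%) also held ETO peaks of both conditions and 2597 (20.2%) held an ETO peak of the knockdown only. An ETO peak of the control only was present in 95 (0.738%), and no ETO peak in the 1343 (10.4%). The ETO lists differed in length, with 14264 peaks in control and 22594 in knockdown. These 1343 regions held 1372 of the 23162 control Flag peaks (5.92%) and 1362 of the 25961 knockdown Flag peaks (5.25%). In 1299 of them the region consisted of exactly 1 peak of each condition. No region overlapped any of the 5 derived lists of dual-antibody peaks. Since the rule excludes ETO peaks, this check repeats the rule and adds no result.

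The threshold of 1 bp decided few memberships. Inside it, 9 regions had an ETO peak no more than 50 bp away, the nearest at 1 bp. Outside it, 2 of the 11527 regions with Flag peaks of both conditions and an ETO peak overlapped that ETO peak by no more than 50 bp, the smaller overlap being 22 bp. The lengths of the lists counted for more: 2135 regions met the rule when the knockdown lists were shortened, by peak width, to the lengths of the control lists, and 613 when all 4 lists were shortened to the shortest. The 2 Flag peaks themselves overlapped by no more than 50 bp in 44 of the 1299 regions with 1 peak of each condition.

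ETO peaks were nearby at most of the regions. The nearest ETO peak of either condition lay at a median of 2039 bp (interquartile range 733.5 to 5596 bp). It was within 500 bp of 243 regions (18.1%), within 1 kb of 427 (31.8%), within 5 kb of 976 (72.7%) and within 10 kb of 1156 (86.1%). The knockdown ETO list supplied the closer peak in 1156 regions (86.1%), the control ETO list in 141, and 46 were tied. The median distance was 2062 bp to a knockdown ETO peak and 4865 bp to a control ETO peak. The knockdown ETO list was also the longer one (22594 against 14264 peaks), and its part in this order was not tested. Regions with a Flag peak of a single condition and no ETO peak had larger median distances to the nearest ETO peak of either condition. These were 2876 bp for control-only and 4037 bp for knockdown-only Flag regions. Both classes, too, were nearer to knockdown ETO peaks (medians 3200 and 4063 bp) than to control ETO peaks (6093 and 7632 bp). At short range the control-only Flag regions were not farther away, with 21.1% within 500 bp and 32.0% within 1 kb of an ETO peak. Within 5 kb the order changed: 60.3% of the 3639 control-only Flag regions and 56.2% of the 7945 knockdown-only Flag regions had an ETO peak within 5 kb.

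**Figure D1:**
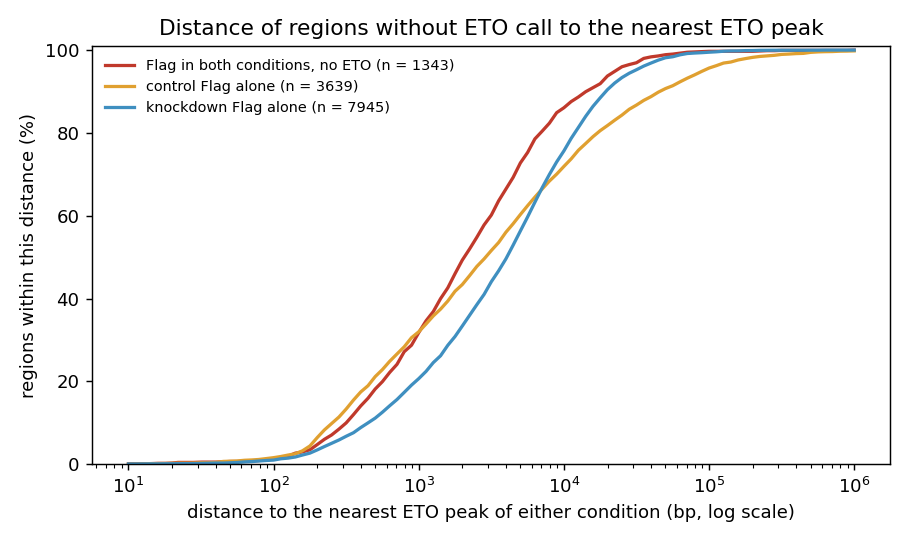
Cumulative share of regions (%) against the distance to the nearest ETO peak of either condition (bp, log axis), for Flag-only regions of both conditions and for Flag-only regions of a single condition. Within 5 kb, 72.7% of the regions of both conditions had an ETO peak, against 60.3% (control only) and 56.2% (knockdown only).

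Only 4 regions lay more than 100 kb from any ETO peak. They were in AATF, a gene for an apoptosis-antagonising transcription factor (chr17:37047633-37048042), in EPB41L1, a membrane skeleton protein gene (chr20:36156638-36157015), in LOC105374602 (chr5:43186-43485) and near LINC03155 (chr9:64775288-64775676). The other 1339 had an ETO peak closer than that.

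The regions were short. Their median length was 479 bp (interquartile range 360 to 640.5 bp, range 170 to 2843 bp), against 1056 bp for regions called in all 4 lists. Regions called in a single Flag list were shorter still, with medians of 275 bp (control) and 277 bp (knockdown). Merging peaks of more lists lengthens a region by construction, so these lengths carry no test.

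Within the regions the knockdown Flag peak was more often the longer one. Its median length was 350 bp (interquartile range 272 to 524 bp), and that of the control Flag peak was 322 bp (245 to 420 bp). The knockdown peak was longer in 780 regions (58.1%), the control peak in 559, and 4 were equal. The ratio of knockdown to control length had a median of 1.11 (interquartile range 0.81 to 1.70). At regions called in all 4 lists the order was the opposite: the knockdown peak was longer in 30.2%, with a median ratio of 0.883. Over the whole lists, too, the median Flag peak was shorter in knockdown (364 bp) than in control (416 bp).

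The 2 Flag peaks of a region shared less of their length than at sites that also had ETO peaks. Among the 1299 regions with 1 peak of each condition, the median shared length was 239 bp and the median Jaccard index, the shared length over the joint length, was 0.515. The index exceeded 0.5 in 685 (52.7%). Of the regions called in all 4 lists, 5866 had 1 Flag peak of each condition, and in 5808 of these the 2 peaks overlapped. Those 5808 had a median shared length of 423 bp and a median index of 0.738, with the pairs that did not overlap left out.

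**Figure D2:**
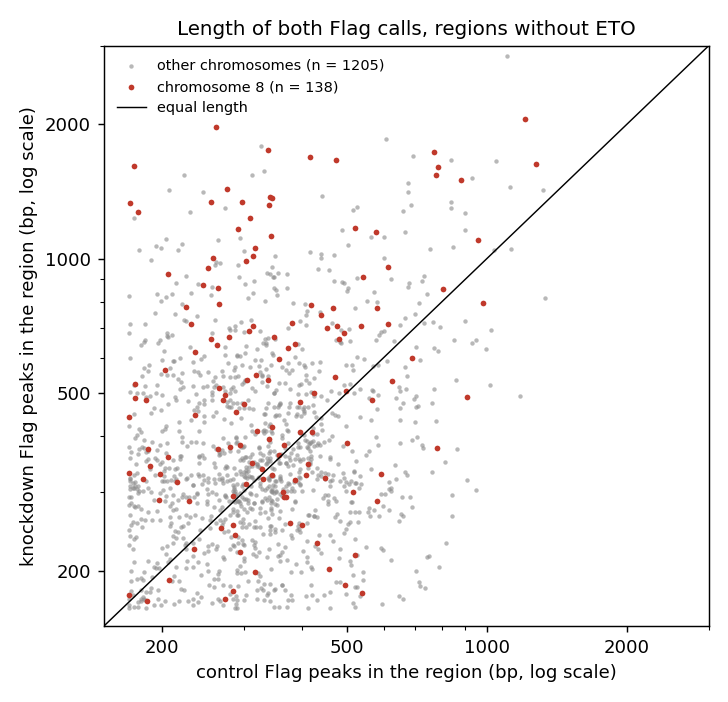
Length of the knockdown Flag peaks against that of the control Flag peaks (bp, both axes log), 1 point per Flag-only region of both conditions, with chromosome 8 (138 regions) in red and the line of equal length. More points lie above the line (780) than below it (559).

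The share of regions with a longer knockdown peak varied between chromosomes. On chromosome 8, the knockdown peak was longer in 73.2% of 138 regions, with a median ratio of 1.56. On chromosome 11 it was longer in 61.8% of 173 regions (ratio 1.22) and on chromosome 17 in 61.6% of 232 (ratio 1.15). On chromosome 19 the lengths were close to balanced, with 51.4% of 214 regions longer in knockdown (ratio 1.04). On chromosome 3 the control peak was longer more often, with 30.4% of 23 regions longer in knockdown (ratio 0.925). The knockdown peak was longer at 59.9% of the regions in gene-dense windows (more than 20 protein-coding genes in the surrounding 1 Mb) and at 53.3% of the others. Near gene boundaries the share was 53.7%, against 58.9% elsewhere.

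All of the 10 longest regions had the longer Flag signal in knockdown. The longest, 2843 bp near TEX19, a germ cell gene (chr17:82365597-82368439), was covered by 1 knockdown peak over its whole length and by 3 control peaks that summed to 1106 bp. A region of 2055 bp in IQANK1 (chr8:143768454-143770508) had the same form, with 1207 bp of control peaks. In CAPN1, the gene of a calcium-dependent protease, a region of 1792 bp (chr11:65195730-65197521) had a knockdown peak over its whole length and a control peak of 327 bp. In MROH1 a region of 1757 bp (chr8:144234719-144236475) had a control peak of 338 bp. At P4HB, which encodes protein disulfide isomerase, a region of 1851 bp (chr17:81841566-81843416) had control peaks summing to 607 bp, and a knockdown ETO peak lay 305 bp away. The others were in or near LOC105369350 (2061 bp), LINC02878 (2000 bp), LOC101928902 (1734 bp), TRG-CCC5-1 (1725 bp) and RELA-DT (1697 bp). Of the 10, 3 lay on chromosome 11 and 4 on chromosome 8.

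Most regions lay away from the ends of genes. A gene boundary, either end of a gene of the RefSeq table, was within 1 kb of the centre of 218 regions, or 16.2% (95% Wilson interval 14.4 to 18.3%). Over all 35622 merged regions that share was 38.5%. Inside genes but farther from their ends lay the centres of 691 regions (51.5%), and 434 (32.3%) were centred outside genes. Regions called in all 4 lists had 59.9% near a boundary and 11.1% outside genes.

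Near a boundary, the difference from the regions of all 4 lists was -43.7 percentage points (odds ratio 0.129), with the same direction on 23 of 23 chromosomes. Its adjusted p was 5.7e-208 in a two-sided Fisher's exact test on regions, with Benjamini-Hochberg adjustment over 3 comparisons. Control-only Flag regions had 24.5% near a boundary, and the difference was -8.25 points (adjusted p = 3.3e-10 in the same exact test, lower on 20 of 23 chromosomes). Knockdown-only Flag regions had 14.5%, and the difference of 1.69 points did not pass the exact test (adjusted p = 0.105). These tests treat regions as independent, although neighbouring regions share the same stretches of chromosome, so the p-values are too small.

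Gene starts showed the same order. On the 22 chromosomes with starts in the promoter table (chromosome 8 starts were not used here), a start lay within 1 kb of 83 of 1205 regions, or 6.89% (95% Wilson interval 5.59 to 8.46%). Over all merged regions the share was 29.9%. It was 51.7% for regions of all 4 lists, a difference of -44.8 points (adjusted p = 1.5e-222, two-sided Fisher's exact test on regions), lower on 22 of 22 chromosomes. Control-only Flag regions had 16.3% (adjusted p = 1.0e-17 in the same exact test), lower on 20 of 22. Knockdown-only Flag regions had 4.69%, a lower share than at the regions of both conditions (adjusted p = 0.00169 in the same exact test), with the opposite order on 4 of 22 chromosomes. With starts counted only within 500 bp this last difference no longer passed the exact test (0.862 points, adjusted p = 0.0582). The median distance to a start was 8.29 kb, against 0.869 kb for regions of all 4 lists, 7.15 kb for control-only and 10.1 kb for knockdown-only Flag regions.

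**Figure D3:**
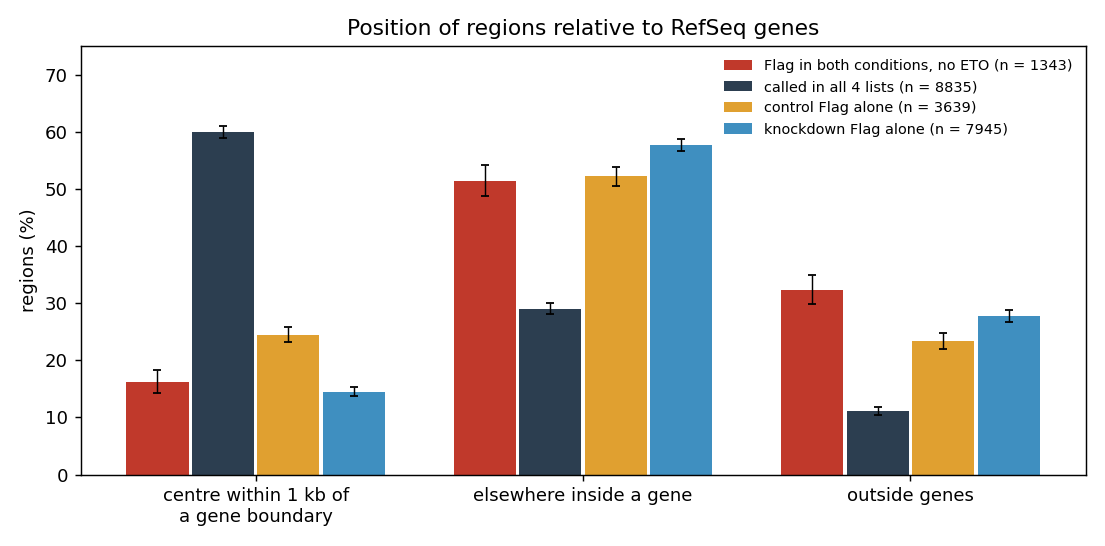
Bars give the share of regions (%) with the centre within 1 kb of a gene boundary, elsewhere inside a gene or outside genes, for the 4 classes of regions, and error bars give 95% Wilson intervals. The Flag-only regions of both conditions stand at 16.2%, 51.5% and 32.3%, against 59.9%, 29.0% and 11.1% for regions of all 4 lists.

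A few chromosomes held most of the regions. Chromosome 17 held 232 (17.3%), chromosome 19 held 214 (15.9%), chromosome 11 held 173 (12.9%), chromosome 8 held 138 (10.3%) and chromosome 16 held 135 (10.05%). The regions of all 4 lists had 9.08% on chromosome 17, 11.6% on chromosome 19, 6.59% on chromosome 11, 3.49% on chromosome 8 and 6.83% on chromosome 16. Knockdown-only Flag regions were distributed more like the regions of both conditions, with 15.3%, 18.2%, 11.6%, 6.12% and 9.82% on these 5 chromosomes. Chromosome 8 holds 3.58% of protein-coding genes. Chromosome 1 held only 75 regions (5.58%, against 10.4% of the regions of all 4 lists) and chromosome 2 only 12 (0.894%, against 4.41%). Chromosome 13 had 2 and chromosome 18 had 3.

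**Figure D4:**
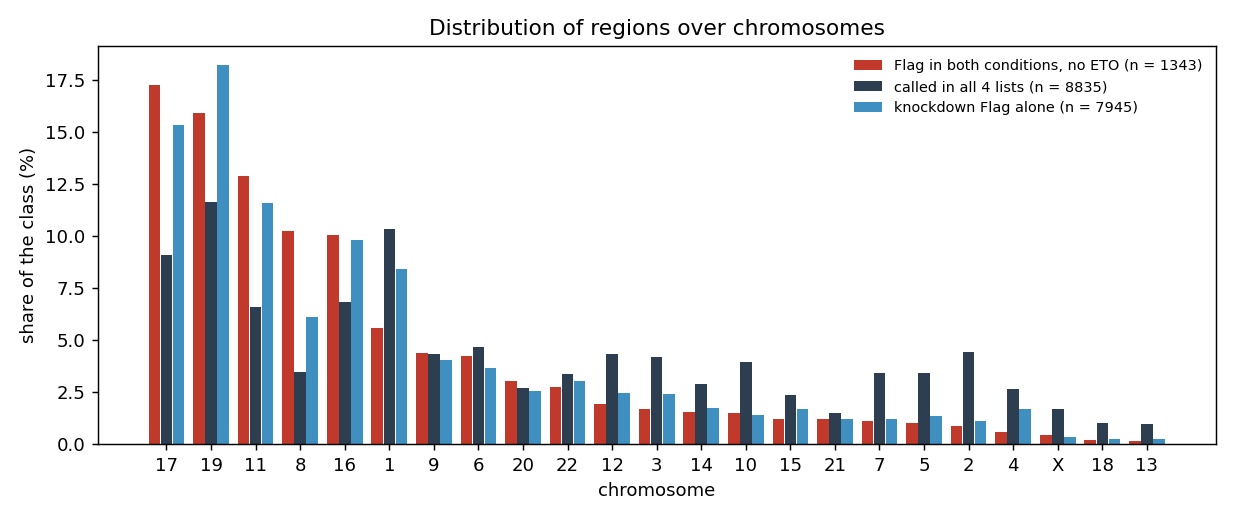
Share of the regions of a class (%) on each chromosome, for Flag-only regions of both conditions, regions called in all 4 lists and knockdown-only Flag regions. Chromosomes 17, 19, 11, 8 and 16 stand highest for the Flag-only regions, at 17.3%, 15.9%, 12.9%, 10.3% and 10.05%.

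Gene density separated the regions from those of all 4 lists and from control-only Flag regions, but far less from knockdown-only Flag regions. A window of 1 Mb around a region held a median of 31 protein-coding genes (interquartile range 20 to 41), against 18 for regions of all 4 lists, 17 for control-only and 29 for knockdown-only Flag regions. More than 20 genes, 20 being the median over all merged regions, surrounded 977 regions (72.7%). That share was 29.2 points above that of the regions of all 4 lists (43.5%, adjusted p = 3.0e-90, two-sided Fisher's exact test on regions) and 31.2 points above that of control-only Flag regions (41.5%, adjusted p = 3.7e-87). Against knockdown-only Flag regions (70.0%) the difference was 2.79 points (adjusted p = 0.0387 in the same exact test), and it changed sign when only regions of 300 to 600 bp were used (-2.46 points). In bins of 1 Mb with fewer than 10 Flag-only regions of both conditions it was -5.73 points. Those bins were picked by the number of these same regions, so they cannot test where the regions lie. By chromosome, the gene-dense share was lower than that of knockdown-only Flag regions on 11 of 23. It was lower than that of control-only Flag regions on 2 and than that of the regions of all 4 lists on 3. The exact tests treat regions as independent, although neighbouring regions share most of a window, so the p-values are too small.

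Few bins of the genome held most of them. At least 1 of the 1343 regions lay in 307 of the 1990 bins of 1 Mb with any merged region. The 8835 regions of all 4 lists lay in 1503 bins, but a larger class can reach more bins by its size alone. The 10 bins with most of these regions held 387 of them (28.8%). In those same bins, which were picked by this count, lay 6.56% of the regions of all 4 lists, 4.37% of the control-only and 19.4% of the knockdown-only Flag regions. The 50 fullest bins held 61.8% of the regions of both conditions and 49.6% of the knockdown-only Flag regions. In the 32 bins with at least 10 regions, which held 697 (51.9%), 15.2% of the regions lay near a gene boundary, against 53.9% of the regions of all 4 lists in those bins. In these bins the share in gene-dense windows differed from that of the regions of all 4 lists by -1.50 points, and in the other bins by 15.4 points. The low share at gene boundaries was present in the fullest bins and elsewhere (17.3% against 61.1%).

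The fullest bin lay near the end of chromosome 8 (chr8:144000001-145000000), with 66 of its 420 merged regions (15.7%) and 46 protein-coding genes. That bin also held 218 knockdown-only and 12 control-only Flag regions. The next held 58 regions on chromosome 11 (chr11:65000001-66000000) and 56 on chromosome 17 (chr17:81000001-82000000). In each, knockdown-only Flag regions also outnumbered control-only ones (195 against 21, and 173 against 20).

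Some neighbouring regions came in strings. With neighbours no more than 10 kb apart joined, 553 regions (41.2%) lay in a stretch of at least 2, and 790 stood alone. The same share was not computed for the other classes or for all merged regions, so it does not set these regions apart. The fullest stretch had 12 regions in 44.7 kb (chr8:144340340-144385081), over CATSPERQ, FBXL6, SLC52A2 and ADCK5. SLC52A2 encodes a riboflavin transporter and FBXL6 an F-box protein. Of the 28 merged regions there, 8 held an ETO peak and 3 were called in all 4 lists. Another stretch had 10 regions in 43.6 kb (chr8:145005279-145048925), with no protein-coding gene and 3 regions with an ETO peak. Next came 8 regions in 34.0 kb (chr11:65666748-65700793), 3 regions with an ETO peak and none called in all 4 lists; 4 other stretches also had 8.

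By gene, the regions touched 1126 of 19974 protein-coding genes, counting gene bodies and 10 kb to either side (5.64%). Of these genes, 799 had 1 region and 25 had at least 5. Nearly all of them had an ETO site too: 1089 (96.7%) had some region with an ETO peak by the same rule, against 55.5% of all protein-coding genes, and 989 (87.8%) had a region called in all 4 lists, against 35% of all. The 1126 genes were shorter (median 16.9 kb) than all protein-coding genes (24.2 kb). Genes that lie close together share regions under this rule, so the gene counts are not independent of each other.

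MROH1 had the most regions, 13, all in the gene body, beside 12 regions with an ETO peak. ARHGAP39 had 10 in its body, and IQANK1 had 9 in its body with a single region called in all 4 lists. ABCA3, the lipid transporter of lung surfactant, had 8, of which 4 lay in the body. TOP1MT, which encodes the mitochondrial topoisomerase I, had 8, of which 6 lay in the body. CCDC57 had 7. ADCK5, FRMD8 and LTBP3 had 6 each; LTBP3 binds latent TGF-beta and FRMD8 stabilises the iRhom sheddase complex. MROH1, ARHGAP39, IQANK1, TOP1MT and ADCK5 all lie on chromosome 8.

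CBFA2T3, also known as ETO2 or MTG16, was the leukaemia-related gene with the most regions. It encodes a corepressor of the ETO family that works with haematopoietic transcription factors. Of its 8 regions, 7 lay in the gene body, among 11 regions with an ETO peak and 9 called in all 4 lists. The nearest ETO peaks of these 8 regions lay 2161 to 8454 bp away. The longest region, 1339 bp (chr16:88946853-88948191), had a knockdown Flag peak of 1288 bp and a control Flag peak of 516 bp. At chr16:88965251-88966000 the knockdown Flag peak was 750 bp and the control Flag peak 213 bp. The control peak was the longer one at chr16:88925168-88925790 (623 against 301 bp), which holds the LOC105371409 stretch printed above, at chr16:88944958-88945663 (706 against 493 bp) and at chr16:88948661-88949232 (572 against 274 bp). The lengths of the 2 conditions were thus ordered differently within 1 gene.

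Of the other RUNX and ETO family genes, only RUNX3 had a Flag-only region of both conditions. RUNX3, a RUNX family transcription factor, had 1 region (chr1:24952447-24952965; control 184 bp, knockdown 519 bp). Of the 7 genes of this list, 2 (28.6%) had a Flag-only region of both conditions, beside 5.64% of all protein-coding genes. A region called in all 4 lists was present at 6 (85.7%), beside 35% of all protein-coding genes.

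Of 20 AML1-ETO and myeloid genes, 3 (15%) had a Flag-only region of both conditions (NFE2, OGG1 and SPI1), beside 5.64% of all protein-coding genes. A region called in all 4 lists was present at 15 of them (75%), beside 35% of all protein-coding genes. Counted in gene bodies alone, 1 of the 20 had a Flag-only region (OGG1), beside 2.54% of all protein-coding genes. SPI1 encodes the myeloid factor PU.1. The region counted for it (chr11:47388259-47388542) was centred outside SPI1 and overlapped SLC39A13-AS1. It lay 4895 bp from a control ETO peak and 5551 bp from a knockdown ETO peak. NFE2 encodes an erythroid and megakaryocytic factor; its region (chr12:54302015-54302558) had a control Flag peak of 362 bp and a knockdown Flag peak of 396 bp, with a knockdown ETO peak 901 bp away. OGG1 encodes a DNA glycosylase for oxidised guanine; its region (chr3:9781432-9781798) lay 415 bp from a control ETO peak. Of 12 genes for transcription factors and cofactors that work with AML1-ETO, TCF3, an E protein, had 2 regions and LYL1 had 1. A region called in all 4 lists was present at 6 of the 12. None of these Flag-only regions was centred in TCF3 or LYL1, and the one counted for LYL1 overlapped NFIX.

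Among the other gene groups, none of 7 JUN and FOS genes and none of 10 cell cycle genes had a Flag-only region of both conditions, whereas 5 and 7 of them had a region of all 4 lists. Of 12 ETS factor genes, SPI1 was the 1 with a region within 10 kb, and 7 had a region of all 4 lists. Of 15 SWI/SNF subunit genes, ARID1A and PBRM1 had 1 each and 12 had a region of all 4 lists. A Flag-only region was near 6 of 81 cytosolic ribosomal protein genes (with RPL8 at 3 regions and RPS9 at 2) and near 7 of 77 mitochondrial ribosomal protein genes, of which 41 and 32 had a region of all 4 lists. It was near 2 of 48 proteasome genes (PSMC6 and PSMD13), of which 25 had a region of all 4 lists. It was also near 2 of 55 genes listed with the translation initiation factors by an EIF symbol alone (EIF1AD and EIF3G). Of these 55, 21 had a region of all 4 lists. The shares over all lists so far, from 0% to 28.6%, stand beside the 5.64% of all protein-coding genes, and lists of 7 to 20 genes allow no finer statement. For regions of all 4 lists the share over all protein-coding genes was 35%.

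Replication-dependent histone genes, which lie in clusters on chromosome 6, had a Flag-only region nearby in 13 of 69 (18.8%). The share over all protein-coding genes was 5.64%. The 13 genes shared 4 distinct regions, none of them in a gene body, so these counts rest on few sites. The region at chr6:26207427-26208038 was within 10 kb of 6 of the genes. By the same rule, 54 of the 69 (78.3%) had a region called in all 4 lists, beside 35% of all protein-coding genes. Zinc finger genes of chromosome 19 are a large family of mostly KRAB repressors. Of these, 17 of 246 (6.91%) had a Flag-only region in the body or within 10 kb, close to the 5.64% of all genes. A region of all 4 lists was near 72 of the 246 (29.3%), beside 35% of all genes. ZNF446, ZNF556, ZNF557, ZNF627 and ZNF799 had 2 each.

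**Figure D5:**
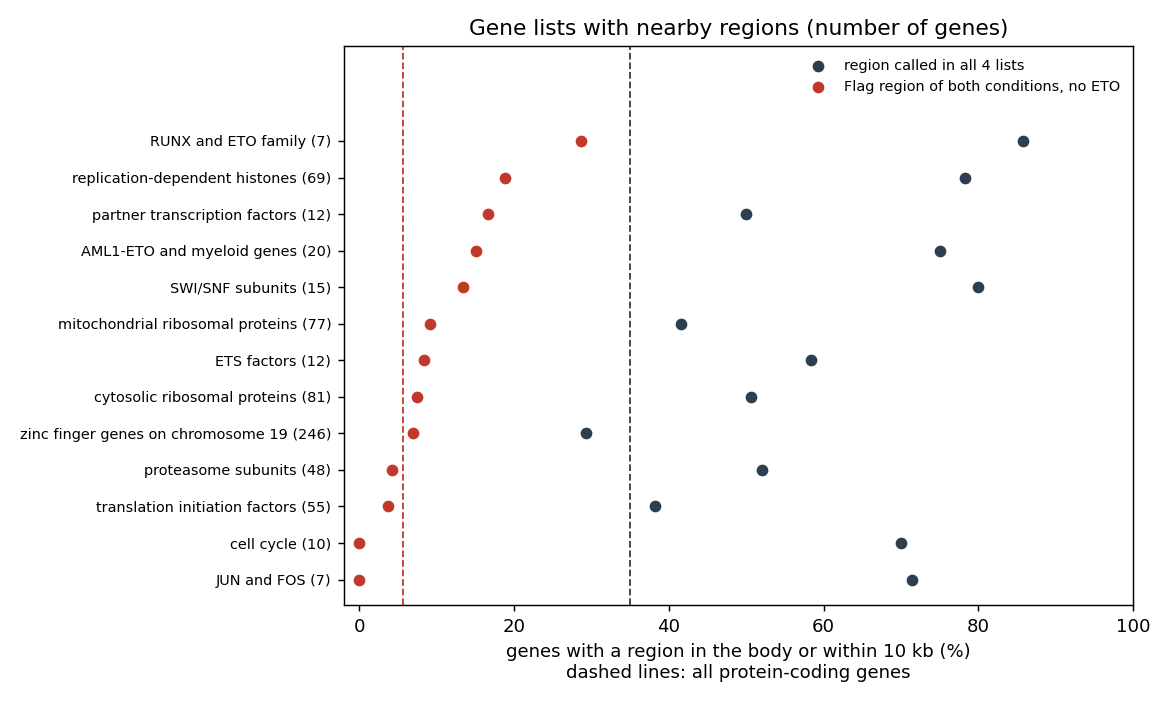
Share of the genes of each list (%) with a Flag-only region of both conditions or with a region called in all 4 lists, in the gene body or within 10 kb, with the number of genes of each list in parentheses and the shares of all protein-coding genes as dashed lines (5.64% and 35%). Every list shown had a lower share for the Flag-only regions, as did all genes.

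At promoters outside chromosome 8, the 22 regions overlapped 28 windows of 25 genes, or 0.0801% of the 34961 windows. Regions of all 4 lists overlapped 5940 windows (17.0%), control-only Flag regions 317 (0.907%) and knockdown-only Flag regions 99 (0.283%). These shares also depend on class size. On these chromosomes the classes had 1205 regions (both conditions), 8527 (all 4 lists), 3532 (control only) and 7459 (knockdown only). Of the 25 genes, LTA and the divergent pair NELFE and SKIC2 lie in the major histocompatibility region. NELFE encodes a subunit of the negative elongation factor. TLE2 encodes a Groucho corepressor, SBNO2 a transcriptional coregulator, and LILRB3 and LILRA1 encode leukocyte immunoglobulin-like receptors. Others were RPS6KA1, GDF11, OXA1L, FLOT2, GIPR and AGMAT.

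The base composition of these windows lay between the other classes. The median GC content was 62.3%, against 68.0% in windows of regions of all 4 lists and 58.7% in all windows. The median number of CpG dinucleotides was 16.5, against 29 and 14. The letters TGTGGT, on either strand, occurred in 8 of the 28 windows (28.6%) and in 13.1% of all windows. Counted once per locus, they occurred at 5 of 23 loci (21.7%, 95% Wilson interval 9.66 to 41.9%). The share was 10.5% of loci with regions of all 4 lists and 13.5% of all loci, and the interval spans both. It also spans the 17.0% of knockdown-only Flag loci, but not the 8.43% of control-only ones (interval 5.58 to 12.5%). In a narrower window of 150 bases the order changed. The letters then occurred at 1 of the 23 loci (4.35%), against 5.35% (all 4 lists), 4.42% (control only), 9.09% (knockdown only) and 6.96% of all loci. The letters GGGCGG, the core bound by SP and KLF factors, occurred in 57.1% of the windows, against 77.6% and 45.0%. A match is a description of letters, and of the 5 distinct RUNX core matches, those at RPS6KA1 and OXA1L lay outside the Flag-only region.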

How the data were processed

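Peak positions in bp were used as the authors deposited them, as intervals without scores; 4 single-antibody lists were used, and 5 derived lists only for an overlap check. The submitters' processing notes name fastp 0.19.5, Bowtie2 2.3.5, MACS2 2.2.5 and HOMER 4.8, and the builds hg38 and sacCer3, with no role; the pooling of replicates and the use of the IgG libraries are not given in the sources used here. Intervals were merged in Python (at least 1 bp) and compared with RefSeq genes of GRCh38.p14. bedtools 2.31.1 gave the same counts. Classes were compared by two-sided Fisher's exact tests with Benjamini-Hochberg adjustment over 3 comparisons. In a simulated set, the merging recovered 300 of 300 planted Flag-only regions.

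The members and the gene lists were chosen with earlier results of these data known. The named regions and genes follow a rule: the 10 longest regions, the 10 protein-coding genes with most regions (ties in alphabetical order), the 3 stretches with most regions, the list genes, and the genes whose promoter windows were reached. Gene starts, gene-dense windows, bins, the split by peak length and the promoter windows were added after seeing the data, as was the naming of the 4 regions far from ETO peaks. AMPD2, LTA, LOC100287036 and LOC105371409 were picked for printing by the position of letters. One of the gene lists is not reported here.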

Additional observations from a re-analysis of the deposited data

How the results depend on the processing

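The number of Flag-only regions of both conditions depends on how peaks are joined. It was 1254 with a minimum overlap of 100 bp and 1115 with peaks up to 500 bp apart merged. It was 856 with the wider 50% of each list and 613 with all 4 lists shortened by width to the length of the shortest. With knockdown lists cut to their widest peaks, as many as in control, it was 2135. Pairwise overlaps without merging were counted in peaks, and 1550 control Flag peaks met the rule, beside 1372 control Flag peaks in the 1343 merged regions. The lower share near gene boundaries kept its direction and passed the test in every setting run against regions of all 4 lists (-43.8 to -34.5 points) and control-only Flag regions (-8.25 to -4.82), and so did the share near gene starts (-45.0 to -35.9 and -10.6 to -5.33). Against knockdown-only Flag regions the calls moved. The boundary difference passed the test at 2.5 kb (4.44 points), for protein-coding genes (1.67), for the wider 50% of each list (5.31) and with the knockdown lists at the control lengths (5.31); the gene-start difference no longer passed at 500 bp (0.862) or with all lists at the shortest length (1.06). The gene-dense difference reversed for the wider 50% of each list (-2.97), for regions of 300 to 600 bp (-2.46) and in bins with fewer than 10 regions (-5.73). It no longer passed with all lists at the shortest length (1.48), the knockdown lists at the control lengths (1.23) or in bins with at least 10 (1.44). In the bins with at least 10 it reversed against regions of all 4 lists (-1.50) and no longer passed against control-only Flag regions (1.75). Both sets of bins were picked by the count of these same regions, so they cannot test the gene-dense difference. The share of protein-coding genes with a region was 2.54% in gene bodies, 2.87% within 1 kb and 11.6% within 50 kb. The cause of these changes was not tested.

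No paired analysis was possible because the lists hold no libraries or replicate numbers; for the same reason no replicate was left out. Merging across 500 bp was applied to the count only. The planned search for the RUNX core at region centres was not run, since no genome sequence was at hand. Depth per library is unknown.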

Other observations

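Bins of 1 Mb rich in Flag-only regions of both conditions differed in what else they held. In chr8:143000001-144000000, 46 of 397 merged regions (11.6%) were of this class, and the median distance of these 46 to an ETO peak was 1181.5 bp. In chr16:2000001-3000000, 38 of 315 (12.1%) were, with a median distance of 3193 bp. In chr11:67000001-68000000, 18 of 195 (9.23%) were, with a median distance of 4651.5 bp, and in chr19:1000001-2000000, 19 of 308 (6.17%) were, with a median distance of 1290 bp.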
